A study of Homo sapiens with 6 samples.

Results

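Immediate early genes are described here, 10 named members among the 57905 gene identifiers of the deposited table: the nuclear receptors NR4A1, NR4A2 and NR4A3, the zinc finger factors EGR1, EGR2 and EGR3, the immediate early response genes IER2, IER3 and IER5, and the RNA-binding protein gene ZFP36. They were named by family, and the set was chosen in part by the measured rise of NR4A1 and NR4A3 with miR-19a in these same libraries. The contrast that chose them is the one reported below, so each difference of a member is given as a description. RNA was measured in A549, an established human lung adenocarcinoma line grown in serum, after lipid transfection with a microRNA at 25 nM and a harvest stated as 24 h. One group of 3 libraries had received miR-19a and the other 3 had received the negative control miR-NC, so that both groups went through transfection and no untransfected cells were compared. All libraries come from a single cell line. Whether a group holds separate cultures is not stated in the labels, so the p-values rest on a spread among libraries that may be technical.

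Immediate early genes are transcribed within minutes of a stimulus from factors already present in the cell, and their messages and proteins are usually short-lived. Serum response factor with its ternary complex partners, and CREB with its coactivators, are the classical activators at their promoters. The NR4A receptors bind DNA without a known hormone, the EGR proteins bind GC-rich sites and are held in check by the NAB corepressors, and ZFP36 (tristetraprolin) binds AU-rich elements in messenger RNAs and recruits the deadenylation machinery that removes their poly(A) tails. A microRNA such as miR-19a pairs through its seed with sites in target messages, mostly in the 3′ UTR, and lowers them.

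The transfected microRNA is shown first, because its seed defines the sites looked for in the members. The labels name miR-19a without an arm. The 3p arm is printed, as RefSeq gives it on GRCh38.p14 (chromosome 13, 91350939 to 91350961, plus strand), with bases 2 to 8 in capitals.
hsa-miR-19a-3p: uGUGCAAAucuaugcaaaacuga
Matches to this seed were sought in the 3′ UTR of 1 GENCODE v29 transcript per gene (GRCh38) as an 8mer (TTTGCACA), a 7mer-m8 (TTTGCAC), a 7mer-A1 (TTGCACA) or a 6mer (TTGCAC), each gene being put in its strongest class. No member had an 8mer. NR4A3 had a 7mer-A1, EGR3 a 7mer-m8 and ZFP36 a 6mer, and the other 7 members had no match in the UTR searched. Among the 10458 tested genes with a 3′ UTR, 72.1% had no match and 18.6% had a site of 7 nt or more. The matches in NR4A3 (chromosome 9, 99866578 to 99866584, plus strand) and ZFP36 (chromosome 19, 39408752 to 39408757, plus strand) are printed with 11 bases on either side, as messenger sequence, with the match in capitals.
NR4A3 7mer-A1: ttgtcttaatgTTGCACAtaagtttatac
ZFP36 6mer: agccacgtctcTTGCACtgtggtctctg
Both genes had more RNA in the miR-19a libraries, as described below. A match of letters is a description and does not show that the site is bound.

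Total counts lay between 15699037 and 17957932 per library. Libraries of the same group differed from each other by a chi-square per gene of 1.59 to 4.15, and libraries of different groups by 26.6 to 30.2, so no library was a copy of another. Of the 6 epithelial markers, the keratins KRT8, KRT18 and KRT7 lay between 497.27 and 680.84 FPKM in every library, and the list summed to 1722.3 to 1755.4 FPKM with miR-NC and 1848.6 to 1929.6 with miR-19a. EPCAM, on the same list, stayed at 0.38 to 0.93 FPKM. Under 1 FPKM in every library were 6 of 7 fibroblast, 4 of 5 blood cell and 2 of 2 matched endothelial markers, the last with sums of at most 0.05 FPKM. The endothelial marker PECAM1 was listed but not matched. The summed FPKM of the fibroblast list was 1.73 to 2.02 with miR-NC and 2.99 to 3.69 with miR-19a, mostly COL1A1 (0.80 to 2.76) and THY1 (0.50 to 0.95), while DCN and COL1A2 were at or below 0.02 FPKM. The blood cell list went from 0.84 to 1.25 up to 1.41 to 1.75, mostly CD14 (0.78 to 1.74), with CD3E and HBB at 0. Their part in the results was not tested.

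The members spanned a wide range of levels, compared here in FPKM, the authors' value per gene length and library size. IER3 was the highest in both groups, at 135.2 ± 2.22 FPKM (mean ± SD, n = 3) with miR-NC and 151.7 ± 1.77 with miR-19a. IER5 followed at 68.2 ± 0.664 and 78.8 ± 1.02 FPKM. IER2 and ZFP36 came next, and their order depended on the group. With miR-NC the 3 IER2 values (33.88, 34.51 and 33.98 FPKM) lay above the 3 ZFP36 values (32.39, 31.03 and 29.98), whereas with miR-19a the ranges overlapped, both with a mean of 46.2 FPKM. NR4A1 stood at 4.58 ± 0.622 and 9.34 ± 0.159 FPKM, and NR4A2 at 1.58 ± 0.0608 and 2.60 ± 0.0954. EGR1 was a low transcript in these cells, at 0.88 ± 0.0954 and 1.22 ± 0.0907 FPKM. NR4A3 lay below EGR1 in every miR-NC library (0.307 ± 0.0751 FPKM), and its miR-19a values of 1.19, 1.24 and 1.40 FPKM overlapped those of EGR1 (1.23, 1.3 and 1.12). EGR2 and EGR3 were at the edge of detection, at or below 0.09 FPKM in all 6 libraries, and were not separable from each other.

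**Figure D1:**
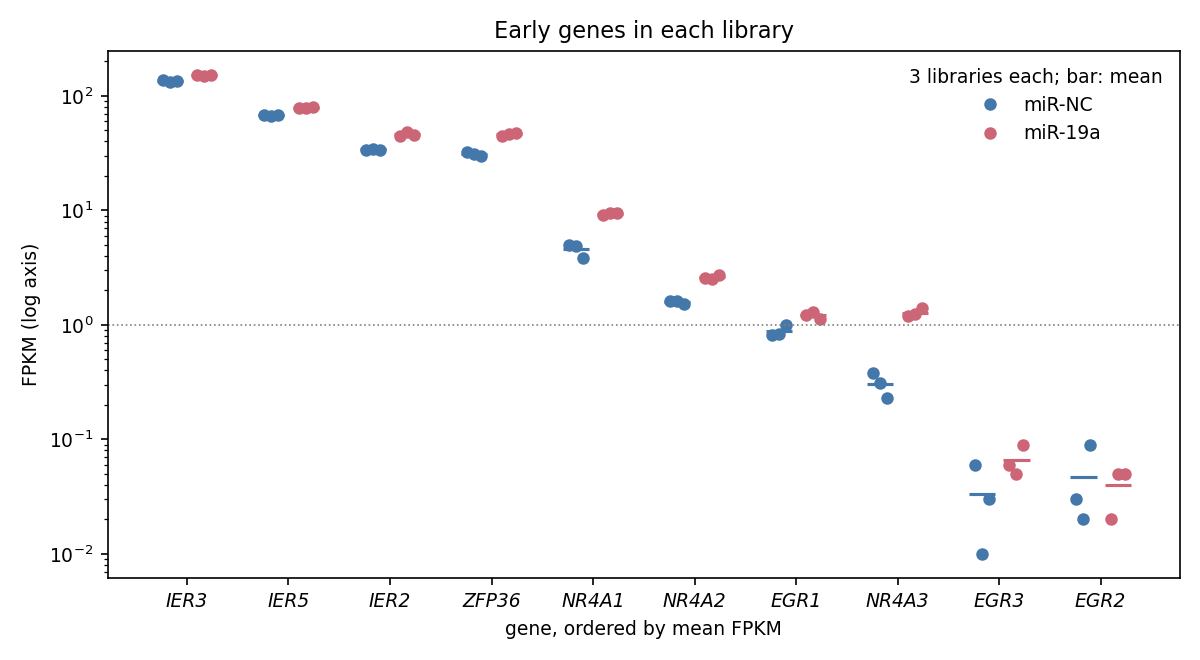
FPKM of the 10 members in each library on a log axis, with points for the 3 miR-NC and 3 miR-19a libraries, bars for the group means and a dotted line at the test's minimum of 1 FPKM. The miR-19a points lie above the miR-NC points for 8 members and overlap them for EGR2 and EGR3.

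With a minimum mean of 1 FPKM, 7 members entered the test across 12452 genes (edgeR's quasi-likelihood test, Benjamini-Hochberg adjusted p under 0.05). All 7 of these were called higher with miR-19a and 0 lower, where 24.9% of all tested genes were called higher and 23.5% lower. The miR-19a libraries lay wholly above the miR-NC libraries for each of the 7, as for 27.6% of tested genes. Nothing is read from these shares, because the rise of 2 members is part of how the genes were chosen. The 7 differed widely in size, from 1.13-fold for IER3 to 2.06-fold for NR4A1. The 3 members left out by the minimum were NR4A3 (mean 0.792 FPKM), just under it, and EGR2 and EGR3 (0.0433 and 0.05 FPKM), while EGR1 lay just above it at 1.05 FPKM, with its 3 miR-NC libraries under the minimum and its 3 miR-19a libraries over it. EGR1 thus entered the test through the group where it is higher. NR4A3 had at least 23 counts in every library and passed edgeR's own count filter, so its fit comes from those 15159 genes, of which 22.7% were called higher. In bulk RNA of this kind a change in the number of cells expressing a gene and a change per cell cannot be told apart.

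**Figure D2:**
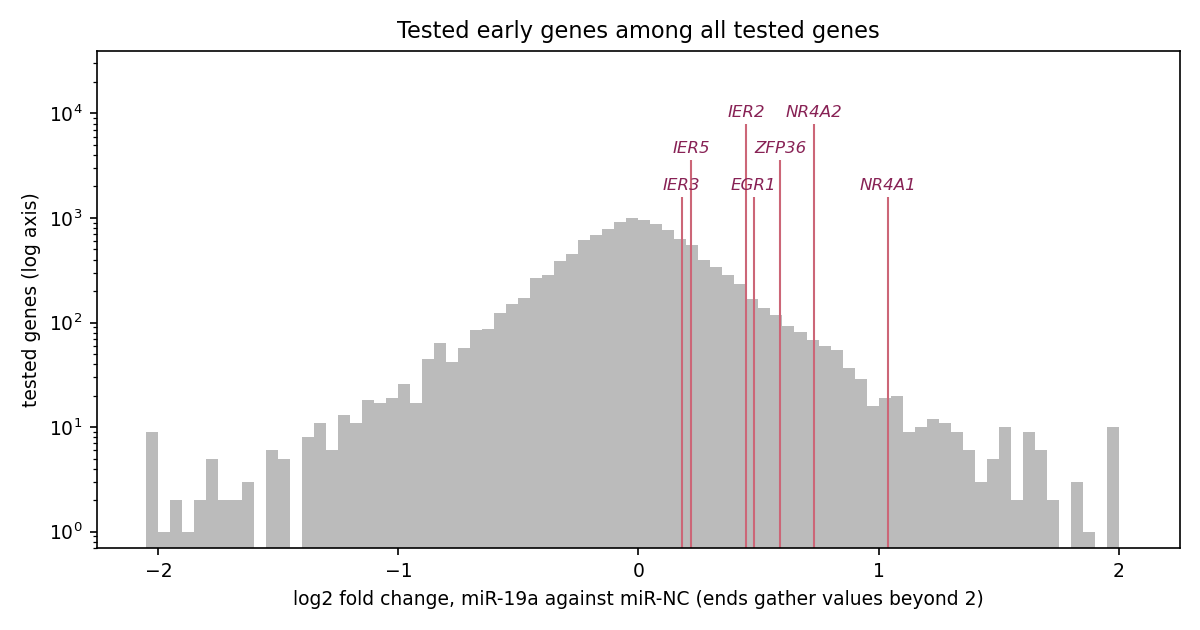
Histogram of the log2 fold change (miR-19a against miR-NC) of all 12452 tested genes, with a log count axis and the 7 tested members as lines. IER3 and IER5 sit in the shoulder of the distribution, at 0.18 and 0.22, and NR4A1 in its right tail at 1.04.

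In the edgeR fits reported here, the orphan nuclear receptors had the largest differences among the members with a fit. This order depended on the processing. With limma on log2(FPKM + 1), NR4A2 was at 0.48, under the lowest ZFP36 value of any alternative (0.56). Gene positions below are those of GENCODE v29 on GRCh38, since the build of the deposited table is not given in the labels. NR4A1 (ENSG00000123358, chromosome 12, 52022832 to 52059507, plus strand), also called NUR77, measured 36.4, 35.9 and 28.1 CPM (counts normalised to library size) in miR-NC replicates 1 to 3, and 67.8, 69.5 and 70.0 CPM in miR-19a replicates 1 to 3. The third control library was the lowest and the miR-19a libraries were tightly grouped. The difference was 1.04 on the log2 scale (SE 0.063), a 2.06-fold higher level, and 1.07% of tested genes had a larger one. It was 0.93 without miR-NC replicate 3.

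NR4A3 (ENSG00000119508, chromosome 9, 99821855 to 99866891, plus strand), also called NOR1, had the largest fold among the members with a fit in edgeR. With limma on log2(FPKM + 1), NR4A1 was higher, at 0.90, than NR4A3, at 0.80. Its raw counts were 40, 32 and 23 in the miR-NC libraries and 123, 135 and 159 in the miR-19a libraries, or 1.96 ± 0.475 and 8.19 ± 0.699 CPM. The groups were far apart relative to their spread. The log2 difference was 2.06 (SE 0.18), or 4.17-fold. Depth gives this value a wider error than that of NR4A1, since 95 control counts in all carry an exact 95% Poisson interval of 76.9 to 116.1 (counting error only). NR4A2 (ENSG00000153234, chromosome 2, 156324432 to 156342348, minus strand), or NURR1, rose less, from 6.45, 6.43 and 5.98 CPM to 10.3, 10.2 and 10.9 CPM. Its libraries did not overlap between groups, and the log2 difference was 0.73 (SE 0.13, edgeR adjusted p = 1.2e-06), or 1.66-fold.

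Summed over the family, NR4A receptor message went from 6.46 ± 0.752 to 13.2 ± 0.351 FPKM. NR4A1 made up 70.7% of that sum in both groups (SD 1.55 and 0.85 percentage points). The share of NR4A3 went from 4.70% ± 0.678 to 9.64% ± 0.577 and that of NR4A2 from 24.6% ± 2.09 to 19.7% ± 0.361, with no overlap between the groups for either. These shares are a description only, since the rise of NR4A1 and NR4A3 helped choose the set. For every 100 counts of NR4A1 there were 5.20 to 6.61 counts of NR4A3 in the control libraries and 11.3 to 12.8 in the miR-19a libraries.

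NR4A genes are known as CREB targets, so the window from 250 bases before to 50 after the annotated start was searched on both strands for the full cAMP response element (CRE, TGACGTCA), its core (TGACG, contained in the full one), the NR4A monomer site NBRE (AAAGGTCA) and the CArG box of serum response factor. RefSeq gave promoters for 7 members (GRCh38.p14): NR4A1, NR4A3, EGR1, EGR2, IER2, IER5 and ZFP36. None of the 7 held the full CRE, found in 1.85% of all 35116 promoters and for 2.25% of their 27305 genes. The NBRE was absent from all 7 as well (1.22% of promoters, 1.49% of genes). NR4A3 held 4 copies of the core, and 0.313% of promoters held at least as many (24.6% held 1 or more). The NR4A1 windows listed (chr12:52022582-52022881 and chr12:52037465-52037764) held none of these motifs. Other starts of NR4A1 were not searched, so its promoters are described only in part. The NR4A3 window (chr9:99821635-99821934, plus strand) is printed for these 4 copies, in capitals.
NR4A3 promoter: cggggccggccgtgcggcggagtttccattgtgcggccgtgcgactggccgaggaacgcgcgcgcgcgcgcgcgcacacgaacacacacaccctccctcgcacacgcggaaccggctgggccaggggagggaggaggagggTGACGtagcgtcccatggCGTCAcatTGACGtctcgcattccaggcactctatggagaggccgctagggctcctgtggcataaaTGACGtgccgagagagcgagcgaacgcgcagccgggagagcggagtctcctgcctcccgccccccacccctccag
The matches start 109, 91, 83 and 25 bases upstream of the annotated start. No binding was measured, and the letters do not show that a factor is there.

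EGR1 (ENSG00000120738, chromosome 5, 138465490 to 138469315, plus strand), a zinc finger activator induced by growth factors, was the call with the largest adjusted p of the 7, and it passed the expression minimum only through its miR-19a libraries. It had 2.59, 2.62 and 3.12 CPM with miR-NC and 3.92, 4.12 and 3.56 CPM with miR-19a, on raw counts of 42 to 49 and 63 to 70 per library. The groups did not overlap but lay close together. The log2 difference was 0.48 (SE 0.19, edgeR adjusted p = 0.0371), or 1.39-fold. The call held in 6 of 15 alternative analyses, with adjusted p between 0.0263 and 0.233. It was lost with DESeq2 (adjusted p = 0.0973) and without any one of miR-19a replicate 1 (0.0825), miR-19a replicate 2 (0.122), miR-NC replicate 1 (0.11) or miR-NC replicate 2 (0.093), with log2 differences of 0.42 to 0.47 in those 4 fits.

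Its relatives EGR2 and EGR3, which act in nerve, muscle and lymphoid cells among others, were barely detected. EGR2 (ENSG00000122877, chromosome 10, 62811996 to 62919900, minus strand) had 2, 1 and 5 counts in the control libraries and 1, 3 and 3 with miR-19a, 8 against 7 in all. EGR3 (ENSG00000179388) had 5, 1 and 2 counts against 5, 4 and 8, a sum of 8 (exact 95% Poisson interval 3.45 to 15.8) against 17 (9.9 to 27.2). The groups overlapped for both genes, and both lay under the minimum of 1 FPKM for the test, so no difference is given for either.

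Among the 7 members with a promoter to search, EGR1 and EGR2 held a CArG box, a motif found for 1.6% of genes (1.29% of all promoters). For EGR2 it lay in the window chr10:62816317-62816616 and not in its other listed windows. EGR1 carried 2 CArG boxes, 105 and 83 bases upstream of the start, as did 0.0313% of promoters (11 of 35116), along with CRE cores at 135 and 66 bases. The EGR1 window (chr5:138465229-138465528, plus strand) is printed with these 4 matches in capitals, as a classical serum response promoter to set beside the modest difference of its transcript.
EGR1 promoter: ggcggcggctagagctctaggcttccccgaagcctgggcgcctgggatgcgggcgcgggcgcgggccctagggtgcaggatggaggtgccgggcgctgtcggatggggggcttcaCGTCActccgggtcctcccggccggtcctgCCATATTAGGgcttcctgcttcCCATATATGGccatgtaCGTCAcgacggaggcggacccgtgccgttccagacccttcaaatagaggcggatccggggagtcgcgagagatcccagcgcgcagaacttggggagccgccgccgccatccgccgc

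IER3 and IER5 were the most abundant members and had the smallest differences of the 7 tested, while IER2 lay close to EGR1 in size, in an order that changed with the processing. IER2 (ENSG00000160888, chromosome 19, 13150415 to 13154908, plus strand), a short nuclear protein gene, measured 104.4, 106.8 and 104.2 CPM with miR-NC and 139.1, 149.4 and 143.2 CPM with miR-19a. The lowest treated library was well above the highest control, with a log2 difference of 0.45 (SE 0.043, edgeR adjusted p = 4.0e-14), or 1.37-fold. IER5 (ENSG00000162783, chromosome 1, 181088712 to 181092899, plus strand), which is known to act with protein phosphatase 2A on heat shock factor HSF1, went from 160.7, 158.9 and 160.4 CPM to 186.8, 184.4 and 189.4 CPM. IER3 (ENSG00000137331, chromosome 6, 30743199 to 30744554, minus strand), also called IEX-1, a regulator of survival and ERK signalling, went from 186.6, 181.4 and 183.7 CPM to 210.9, 205.7 and 209.1 CPM. Both differences were small but larger than the spread between libraries, at 0.22 (SE 0.040, adjusted p = 2.6e-06) for IER5 and 0.18 (SE 0.039, adjusted p = 7.6e-05) for IER3. Of the tested genes, 20.8% had a larger rise than IER5 and 25.0% a larger rise than IER3. With a test against a minimum change of 1.2-fold neither was called, with an adjusted p of 1 for each. IER5L, the close relative of IER5 named here after its values were seen, was at 0.03 (SE 0.045, adjusted p = 0.577).

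ZFP36 (ENSG00000128016, chromosome 19, 39406813 to 39409412, plus strand) rose with miR-19a from 65.3, 62.8 and 60.2 CPM to 90.6, 95.5 and 96.5 CPM. The groups were well separated, with a log2 difference of 0.59 (SE 0.050, edgeR adjusted p = 3.7e-16), or 1.5-fold. Its paralogs, named after their values were seen, moved the other way. ZFP36L2 was at -0.24 (SE 0.049, adjusted p = 3.0e-05) and ZFP36L1 at -0.12 (SE 0.042, adjusted p = 0.0116), both called lower. Tested against a minimum change of 1.2-fold, neither paralog was called.

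ZFP36 binds UAUUUAU and related AU-rich elements, and its own message and that of IER3 are known targets. In the 3′ UTR searched 5 of 10 members had this 7-mer (written TATTTAT in the DNA alphabet), as did 31.8% of tested genes. IER3 and IER5 had 4 copies each, ZFP36 had 3, NR4A3 had 2 and NR4A2 had 1. At least 3 copies occurred in 5.42% of tested genes. Per kb of UTR the members held 0.894 copies and tested genes 0.326. IER2 had neither the 7-mer nor the core pentamer ATTTA, which the other 9 members and 68.3% of tested genes carried. The densest 30-base windows of the 3 genes with most copies are printed as messenger sequence with the 7-mers in capitals, at chromosome 6, 30743648 to 30743677, minus strand, for IER3, chromosome 1, 181092446 to 181092475 for IER5, and chromosome 19, 39409188 to 39409217 for ZFP36, the last 2 on the plus strand.
IER3: taattaaTATTTATatgTATTTATgtacgt
IER5: tcttccttTATTTATTTATTTATttaatta
ZFP36: ccttTATTTATgacgacttTATTTATtcta
The 3 copies in the IER5 window overlap one another. Copy number and log2 difference stood side by side as follows. NR4A3, with 2 copies of the 7-mer and 10 of the pentamer, was at 2.06, and NR4A1, with 0 and 3, was at 1.04. NR4A2, with 1 and 4, was at 0.73 and ZFP36, with 3 and 5, at 0.59. EGR1, with 0 and 1, was at 0.48 and IER2, with 0 and 0, at 0.45. IER5, with 4 and 10, was at 0.22 and IER3, with 4 and 6, at 0.18. No relation between the elements and the differences was tested.

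**Figure D3:**
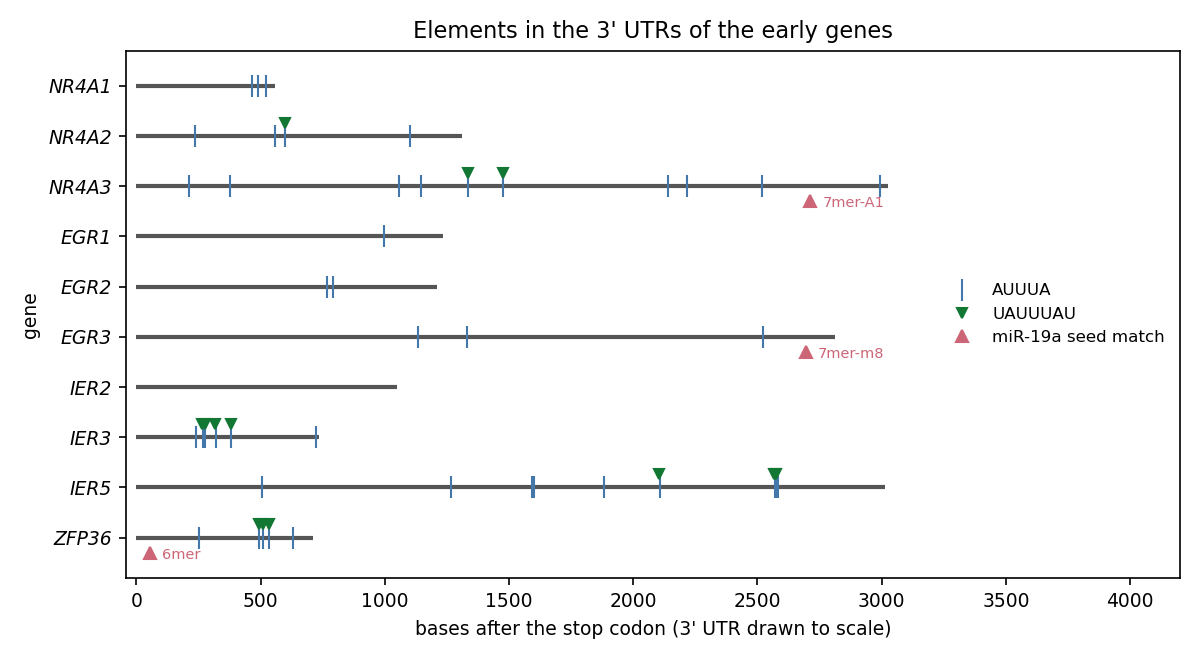
The 3′ UTRs of the 10 members drawn to scale from the stop codon, with ticks for AUUUA, triangles above for UAUUUAU and triangles below for miR-19a seed matches. The elements sit in different places in each gene, and IER2 has none of them.

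The EGR and IER genes and ZFP36, 7 members in all, had at most 2 exons in the transcript used, as did 6.52% of tested genes with a 3′ UTR. The NR4A genes had 8 or 9. The median transcript length of the 10 members was 3305 bases, against 3061 for tested genes, and the median 3′ UTR 1222 bases against 1004.

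**Figure D4:**
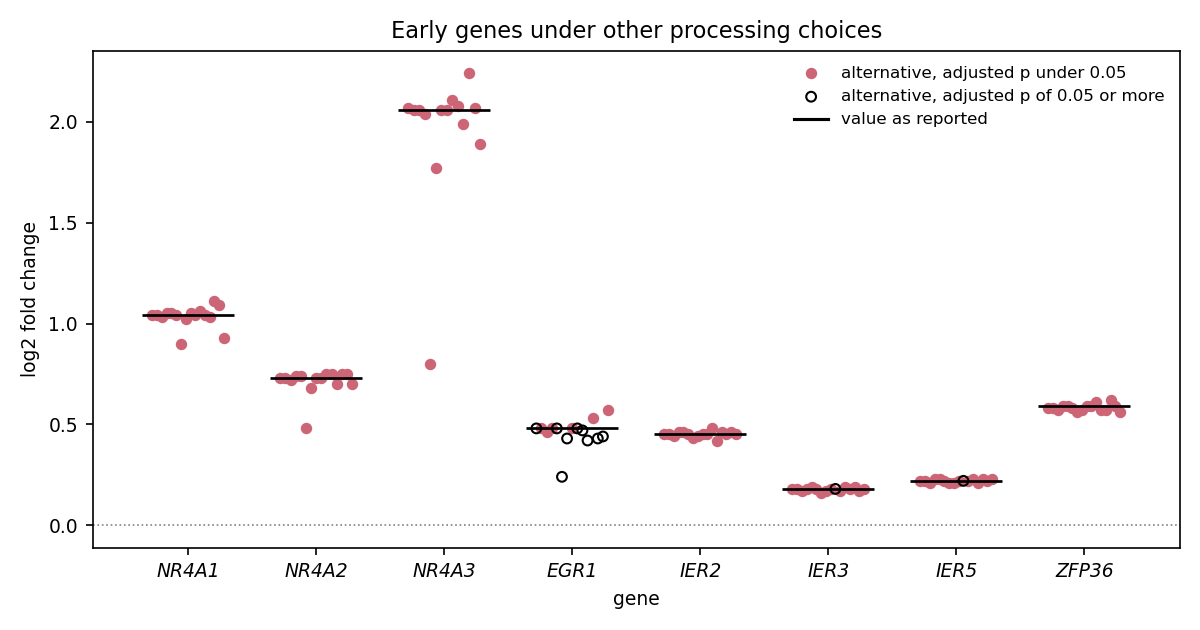
Log2 fold change of the 8 members with a fit, with a black line for the value as reported and 1 point per alternative analysis, filled where the adjusted p was under 0.05. Every point lies above 0, and open points gather at EGR1, with 1 each at IER3 and IER5 for the minimum change of 1.2-fold.

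Among 40 other early genes, of which 36 were tested, 16 were called higher and 7 lower (edgeR), 44.4% and 19.4% against 24.9% and 23.5% of all tested genes. The median log2 difference was 0.10, against 0.00 for all tested genes. RHOB, a small GTPase, had 184.5 ± 2.79 and 319.3 ± 9.03 CPM (0.79, SE 0.039, adjusted p = 1.1e-27). JUNB, an AP-1 subunit, was at 0.72 (SE 0.043, adjusted p = 5.0e-23) and the antiproliferative BTG2 at 0.92 (SE 0.058, adjusted p = 2.7e-22). FOSL1, an AP-1 subunit that accumulates late after stimulation, was lower at -0.82 (SE 0.052, adjusted p = 4.5e-22). DUSP4, a nuclear ERK phosphatase, was at -0.28 (SE 0.037, adjusted p = 1.6e-09) and MYC at -0.20 (SE 0.042, adjusted p = 4.1e-05). The other 13 tested early genes did not pass. Among these, named after their values were seen, were the phosphatase gene DUSP1 at -0.05 (SE 0.040, adjusted p = 0.36), the matrix protein gene CCN1 at 0.01 (SE 0.043, adjusted p = 0.906) and the stress phosphatase subunit PPP1R15A at -0.01 (SE 0.051, adjusted p = 0.875). All 3 had more counts than NR4A1 in the control libraries.

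Of 24 listed factors that activate early promoters, 21 were tested. In RNA 3 were higher (14.3%, against 24.9% of all tested genes), 5 lower (23.8% against 23.5%) and 13 not called, with a median of 0.02. CREM, a CREB family member that also yields an inducible repressor, rose from 32.3 ± 1.39 to 45.1 ± 0.973 CPM (0.48, SE 0.063, adjusted p = 1.2e-09). MEF2A, a MADS box factor, was at 0.36 (SE 0.064, adjusted p = 2.8e-06) and MAPK3, which encodes ERK1, at 0.27 (SE 0.063, adjusted p = 3.0e-04). Lower were MRTFB, an actin-regulated coactivator of serum response factor, at -0.37 (SE 0.060, adjusted p = 3.4e-07), MEF2D at -0.26 (SE 0.047, adjusted p = 3.2e-06) and the CREB coactivator CRTC3 at -0.30 (SE 0.060, adjusted p = 3.2e-05). SRF itself, named with CREB1 after their values were seen, was at 0.02 (SE 0.060, adjusted p = 0.782), and CREB1 was at 0.05 (SE 0.065, adjusted p = 0.57). RNA levels give no measure of the phosphorylation that controls these factors.

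The NAB corepressors of EGR proteins moved in opposite directions. NAB1 went from 89.1 ± 3.99 to 116.2 ± 3.31 CPM (0.38, SE 0.046, adjusted p = 1.3e-10), and NAB2, itself known as an EGR1 target, from 27.5 ± 1.99 to 22.7 ± 1.17 CPM (-0.28, SE 0.076, adjusted p = 0.00124). In edgeR's test against a minimum change of 1.2-fold NAB1 was still called (adjusted p = 0.0109) and NAB2 was not (adjusted p = 0.599). RXRA, a retinoid receptor that pairs with NR4A1 and NR4A2, was lower at -0.35 (SE 0.052, adjusted p = 4.4e-08), and so was the corepressor TRIM28 at -0.23 (SE 0.037, adjusted p = 5.2e-07). Neither RXRA (adjusted p = 0.0806) nor TRIM28 was called in the test against 1.2-fold. Of 7 tested partners and corepressors 1 was higher (14.3%, against 24.9% of all tested genes), 3 lower (42.9% against 23.5%) and 3 not called, with a median of -0.08.

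In the list of ZFP36 relatives and deadenylation or decay factors, 3 of 18 tested genes were higher and 7 lower, with a median of -0.07. The shares were 16.7% higher and 38.9% lower, against 24.9% and 23.5% of all tested genes. CNOT6, a catalytic deadenylase, went from 63.7 ± 2.33 to 41.9 ± 0.271 CPM (-0.60, SE 0.056, adjusted p = 1.2e-14). CNOT1, the scaffold of that complex, was at -0.24 (SE 0.038, adjusted p = 2.1e-07) and PAN3, of a second deadenylase, at -0.49 (SE 0.094, adjusted p = 9.0e-06). The decapping enzyme DCP2 rose from 19.4 ± 2.90 to 40.7 ± 4.75 CPM (1.07, SE 0.080, adjusted p = 1.2e-18) and the exonuclease XRN1 by 0.32 (SE 0.067, adjusted p = 4.1e-05). CNOT2 was at 0.16 (SE 0.063, adjusted p = 0.0305), a call lost in 9 of 15 alternatives, among them DESeq2 (adjusted p = 0.363). In edgeR it was lost without miR-19a replicate 1 (adjusted p = 0.0564), miR-19a replicate 2 (0.396), miR-NC replicate 1 (0.0606) or miR-NC replicate 3 (0.393). The log2 differences in those fits were 0.17, 0.08, 0.16 and 0.07, in that order.

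Transcripts known to be bound by ZFP36 through AU-rich elements were mostly higher, in the same libraries where ZFP36 was higher. Of 22 tested, 15 were called higher and 5 lower, 68.2% and 22.7% against 24.9% and 23.5% of all tested genes, with a median of 0.53. The list was drawn up with earlier results of these libraries known, so the count is not independent evidence of a direction. The cytokine IL11 went from 36.9 ± 1.07 to 154.7 ± 2.50 CPM (2.07, SE 0.050, adjusted p = 4.4e-44). PTGS2, the inducible prostaglandin synthase, went from 59.6 ± 5.76 to 148.4 ± 2.1 CPM (1.31, SE 0.050, adjusted p = 1.2e-33), and the chemokine CXCL8 was at 1.54 (SE 0.055). Among those lower were the hypoxia factor HIF1A at -0.29 (SE 0.039, adjusted p = 3.2e-09) and the cyclin CCND1 at -0.16 (SE 0.037). In edgeR's test against a minimum change of 1.2-fold neither of these 2 was called (HIF1A adjusted p = 0.352). The list then gave 13 higher and 1 lower.

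Of 16 tested genes known to be activated by EGR1, 7 were higher (43.8%, against 24.9% of all tested genes) and 5 lower (31.2% against 23.5%), with a median of 0.18. Tested against a minimum change of 1.2-fold, 6 were higher and 0 lower. HBEGF, an EGF receptor ligand, rose most, from 9.63 ± 0.709 to 23.9 ± 1.26 CPM (1.31, SE 0.093, adjusted p = 9.8e-20). PTGES, a prostaglandin E synthase, was at 0.65 (SE 0.064, adjusted p = 7.7e-14) and the adhesion molecule ICAM1 at 0.68 (SE 0.070, adjusted p = 6.0e-13). DUSP4 (above) was lower, as was the matrix protein THBS1 at -0.37 (SE 0.055, adjusted p = 6.8e-08). The lists share DUSP4, GADD45B and VEGFA, each of which stands on 2 of them.

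**Figure D5:**
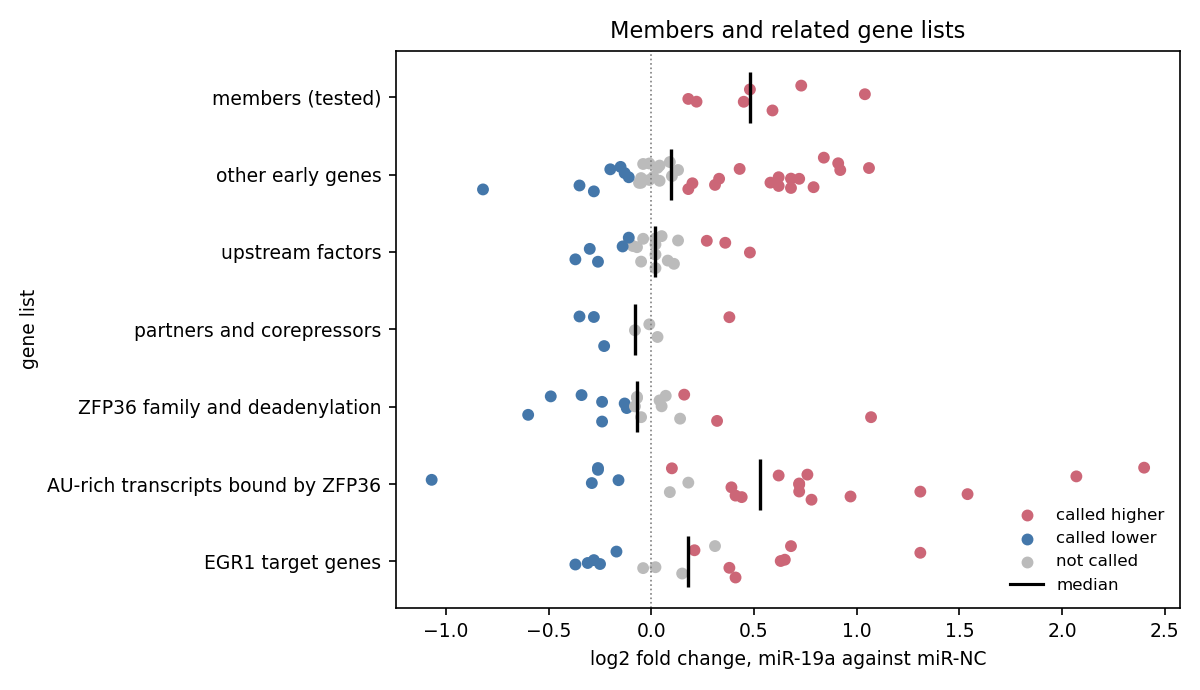
Log2 fold change (miR-19a against miR-NC) of every tested gene in the members and the 6 related lists, coloured by call, with a black line for each list's median. The upstream factors cluster around 0, and the AU-rich transcripts reach up to 2.40 for CCL20, a chemokine gene named after its value was seen.

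Among the 5 tested genes most like NR4A1 across the 6 libraries, by the root mean square difference of log2 CPM centred on each gene's mean, were SH3PXD2A (0.0556), SSBP2 (0.061), ADAMTSL4 (0.0682) and SNAI1 (0.0767). Their log2 differences between the groups were 1.05, 0.94, 0.93 and 0.92, a closeness to NR4A1 that the choice of these genes fixes.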

How the data were processed

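Per the labels' protocols, poly(A)-selected RNA of 6 A549 libraries was sequenced in pairs of 150 nt reads. The submitters' processing notes name bcl2fastq 2.17.1.14. Aligner, counter, build, annotation and strand setting remain not given in the sources used here. In the deposited table each library has a whole-number count per gene, not normalized, and an FPKM value that the authors scaled for gene length and library size, per the file headers. Every column was mapped by sample title. Symbols came from a gene name table (51996 identifiers) and GENCODE v29 (342).

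The 12452 genes reaching a mean of 1 FPKM were tested on counts with edgeR 4.0.16 (R 4.3.3; quasi-likelihood, TMM, two-sided, Benjamini-Hochberg over all tested genes, threshold 0.05). CPM are TMM-scaled over the tested genes. SE is the absolute log2 difference over the square root of F. The 3′ UTR is that of the coding transcript with the longest coding sequence. Reads of overlapping antisense genes may be included, since strand is unknown. The test was also tried on simulated counts, drawn with the means, library sizes and common dispersion of these data. It called 34 of 50 genes changed 1.25-fold, 47 of 50 changed 2-fold and 10 of 12252 unchanged genes. Alternatives used DESeq2 1.42.0, limma 3.58.1 on log2(FPKM + 1) or log2(FPKM + 0.1), other factors and filters, a fold minimum, a replicate block and each library left out.

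The members and lists were chosen with earlier results of these data known. Named are all members, from each list at most the 3 genes rising and the 3 falling with the smallest adjusted p, and the 5 most like NR4A1, besides those marked as named after their values were seen. In the related gene lists the 1 gene without an identifier was DCP1A, and among the cell type markers PECAM1 was not matched. Some genes that this rule names are not reported here.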

Additional observations from a re-analysis of the deposited data

How the results depend on the processing

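No result reversed, and 0 members were called lower under any alternative run. The number called higher was 6 with DESeq2 and with either limma fit, 6 to 7 with a library left out, 8 with edgeR's count filter, which adds NR4A3, and 5 with a minimum mean FPKM of 5. With a minimum change of 1.2-fold it was 4, all tested genes gave 1076 higher and 869 lower, and the numbers called were 13 other early genes, 1 upstream factor, 1 partner or corepressor, 3 of the ZFP36 and deadenylation list and 6 EGR1 targets, all 6 of them higher. A minimum mean FPKM of 5 left 5 called of the ZFP36 and deadenylation list, because fewer of its genes were tested. Of 722 values of named genes under an alternative, 36 lost the call, 9 of them EGR1 and 9 CNOT2, and 0 gained it. NR4A3, whose alternatives were repeated on genes passing edgeR's count filter after the data were seen, ranged from 0.80 (limma, log2(FPKM + 1), which compresses low genes) to 2.24. Same-numbered libraries did not deviate together (correlations of 0.00848, 0.000547 and -0.031, and not every library correlated best with its own number), so the numbers are not taken as pairs. With the replicate block, 3083 genes were higher, 2903 lower and 7 members higher, the same number as without it. Counts of 1 to 8 per library limit EGR2 and EGR3, and 42 to 70 limit EGR1.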
